A study of Mus musculus with 24 samples.

Results

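A set of 278 protein-coding genes in mouse C127 cells carried H3K4me3 at 2 or more separate promoters. The genes were selected on the H3K4me3 peaks themselves: each had transcription start sites (TSSs) at least 2000 bp apart that lay within 250 bp of different peaks. Of 21755 protein-coding genes on 20 chromosomes, 4007 had TSSs that far apart and could qualify, and the 278 genes were 6.94% of these (95% Wilson interval 6.19 to 7.77%). A further 1496 of the 4007 genes had a peak at their TSSs but not a second, 2230 had none, and 3 had 2 peaks at TSSs that were closer together. The 2230 genes without a peak included 738 olfactory receptor genes and 123 vomeronasal receptor genes. Among the 1777 eligible genes with any peak, the share with separate peaks was 15.6%. All these counts follow from the rule and are given as a description, without a test.

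C127 is a mouse mammary epithelial cell line, and H3K4me3 was mapped in it by ChIP-seq of formaldehyde-crosslinked chromatin from 3 replicates. The labels of these samples name no transgene and no treatment. The series held 24 samples in 12 groups, with 1 input for the H3K4me3 ChIP and 2 samples in each other group, and only the H3K4me3 replicates entered the work below. What was measured is a list of 13451 peaks found in all replicates, which gives positions but no heights, so values have no spread between replicates and read depth is unknown. Of 11 markers of luminal mammary epithelium, Gata3 and Esr1 had a peak and the 9 others, keratins, claudins and Cdh1 among them, did not. All 6 mesenchymal markers (Vim, Fn1, Snai1, Twist2, Zeb1 and Cdh2) had a peak. The peaks thus did not follow the markers of luminal mammary epithelium. No markers of other mammary epithelial cells were looked at, so the label of mammary epithelium as a whole was not checked. The cells are called by the name of the line throughout.

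Many mammalian genes begin transcription at more than a single promoter. Alternative promoters can change the untranslated leader only, or replace the first coding exons and so alter the amino terminus of the protein. H3K4me3 is deposited around start sites by SET1 and MLL methyltransferase complexes, and unmethylated CpG islands, which are stretches of DNA rich in CpG dinucleotides, are its commonest location. A gene with separate peaks thus offers a comparison of promoters within the same locus.

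The sequences upstream of both promoters are shown for 3 of these genes, the first in alphabetical order of the listed genes with 2 promoters, different coding starts and no other gene at their peaks. They let CpG-poor and CpG-rich marked promoters be compared by eye, but none of them has the commonest arrangement, a CpG island at both promoters, which 181 of the 278 genes had. Each window holds the 100 bases before the representative TSS, written from 5′ to 3′ on the strand of the gene, with every CG in capitals (RefSeq genome sequence, GRCm38/mm10). No annotated exon overlapped any of the windows, and the downstream windows lay inside the span of their own gene. Cald1 (caldesmon, an actin-binding protein) lies on the plus strand, with windows at chr6:34598400-34598499 and chr6:34709342-34709441. Mark2 (a kinase of microtubule-associated proteins and cell polarity) lies on the minus strand, with windows at chr19:7341820-7341919 and chr19:7295448-7295547. Runx1 (a transcription factor of blood development) lies on the minus strand, with windows at chr16:92826150-92826249 and chr16:92697329-92697428.
Cald1 upstream: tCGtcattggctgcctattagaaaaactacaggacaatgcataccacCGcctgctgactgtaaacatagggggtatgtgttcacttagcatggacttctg
Cald1 downstream: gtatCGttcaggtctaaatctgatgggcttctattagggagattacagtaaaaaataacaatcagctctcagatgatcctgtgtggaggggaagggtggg
Mark2 upstream: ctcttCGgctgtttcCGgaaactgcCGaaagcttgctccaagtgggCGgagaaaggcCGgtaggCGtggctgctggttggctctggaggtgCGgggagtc
Mark2 downstream: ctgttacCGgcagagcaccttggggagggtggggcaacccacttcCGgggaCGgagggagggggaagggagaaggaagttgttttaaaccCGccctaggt
Runx1 upstream: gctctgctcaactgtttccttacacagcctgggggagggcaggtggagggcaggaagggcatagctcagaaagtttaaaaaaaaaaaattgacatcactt
Runx1 downstream: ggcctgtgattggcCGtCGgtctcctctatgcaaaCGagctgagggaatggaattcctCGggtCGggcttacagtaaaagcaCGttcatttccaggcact

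The Cald1 windows held 2 CpGs upstream and 1 downstream. The Mark2 windows held 7 and 4, and the Runx1 windows held 0 and 6. Counted over 250 bp on either side of the TSS, there were 7 and 14 CpGs at Cald1, 47 and 11 at Mark2, and 7 and 44 at Runx1. All 6 of these promoters were marked. Runx1 and Mark2 thus had their CpG-rich promoter on opposite sides, while Cald1 had no CpG island at either.

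Bcl11a, a transcription factor of lymphoid and erythroid cells, is shown for contrast as a gene with a peak at its downstream promoter only. It lies on the plus strand, with windows at chr11:24077956-24078055 and chr11:24080570-24080669. The unmarked upstream window held 1 CpG and the marked downstream window held 9. Over 250 bp on either side of the TSS the counts were 18 and 32, and an island lay at both promoters. The peak was narrow, at 289 bp.
Bcl11a upstream: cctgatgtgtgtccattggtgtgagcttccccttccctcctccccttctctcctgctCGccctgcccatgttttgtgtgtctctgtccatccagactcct
Bcl11a downstream: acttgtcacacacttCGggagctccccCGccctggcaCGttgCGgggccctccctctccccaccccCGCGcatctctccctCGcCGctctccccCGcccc

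Of the 278 genes, 276 had 2 peaks and 2 had 3 peaks, namely Ablim1 and Mast4. Some peaks served neighbouring genes, since the 556 outer peaks of these genes were 551 different peaks. To describe position, TSSs were gathered into promoters along the direction of transcription, and a new promoter was opened at each TSS at least 2000 bp downstream of the first TSS of the one before. Of the 278 genes, 192 had 2 promoters, 53 had 3 and 33 had 4 or more. The share of eligible genes with separate peaks was 5.59% at 2 promoters (192 of 3432), 12.4% at 3 promoters (53 of 426) and 22.1% at 4 or more (33 of 149). By chromosome the share ran from 3.74 to 19.5%, with a median of 6.96%. In the 192 genes with 2 promoters the rule required both to be marked, so the next totals over all 278 genes are largely set by it. The first promoter of the gene was among the marked promoters in 259 genes (93.2%). Every annotated promoter was marked in 201 genes (72.3%), but in only 9 of the 86 genes with 3 or more promoters (10.5%). In these 86 genes the first promoter was marked in 67 (77.9%) and the last in 46 (53.5%). A gene with many promoters therefore usually had marked and unmarked starts side by side. Tcf4, a basic helix-loop-helix factor, had 3 of its 9 promoters marked, and Plec, the cytoskeletal linker plectin, had all 6 marked by 2 peaks.

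In genes with a peak at a single promoter, that promoter was mostly the upstream one. Of 1259 such genes with exactly 2 promoters, 889 (70.6%) had the peak at the upstream promoter only, 223 (17.7%) at the downstream promoter only, and 147 (11.7%) had 1 peak that reached both. Of the 1112 genes with 1 marked promoter, 79.9% were thus marked upstream and 20.1% downstream, a difference of 59.9 percentage points. Computed per chromosome, the difference was 58.9 ± 17.1 points (mean ± SD over 20 chromosomes) and upstream marking prevailed on 20 of 20 (permutation test by sign flips over chromosomes, two-sided, p = 4e-05, Benjamini-Hochberg adjusted p = 8e-05 over 6 tests). The annotation was less sure of unmarked starts. In genes marked upstream, 84.0% of upstream and 62.0% of downstream promoters had a transcript of support level 1 or 2, the best supported levels of the annotation, and in genes marked downstream the values were 62.3% and 91.5%. With only transcripts of these levels, the difference was 56.0 points. In the 216 genes with 3 or more promoters of which 1 was marked, it was the first in 140 (64.8%), an inner promoter in 48 (22.2%) and the last in 28 (13.0%).

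**Figure D1:**
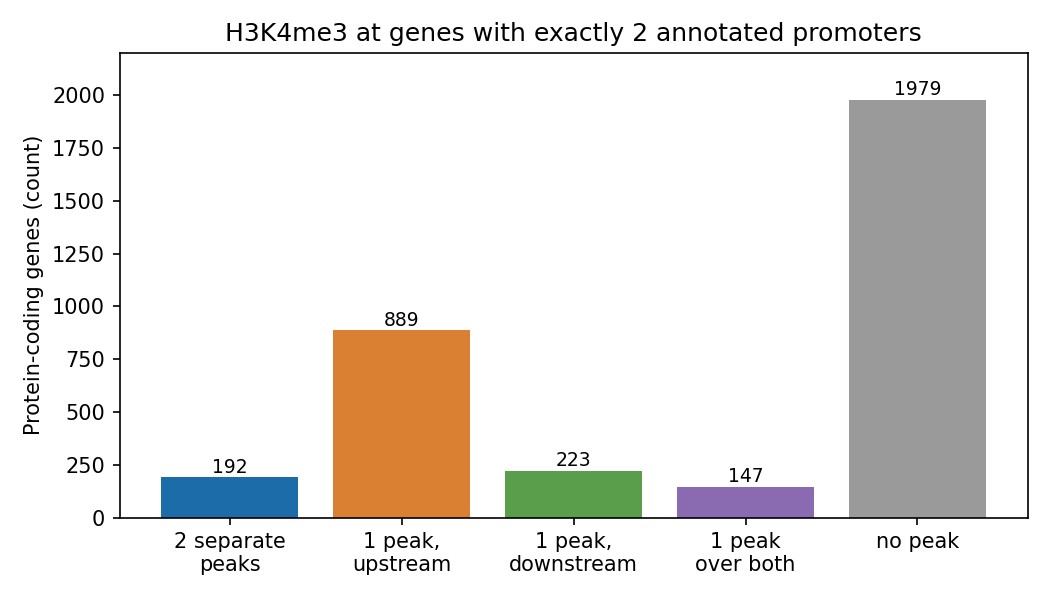
Bars show the number of protein-coding genes with exactly 2 annotated promoters by their H3K4me3 pattern. Separate peaks at both promoters were found in 192 genes, against 889 with the upstream promoter marked only, 223 with the downstream promoter marked only, 147 with 1 peak over both and 1979 with no peak (2 genes with peaks at closer TSSs are not drawn).

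The outer marked TSSs of the 278 genes lay a median of 22118 bp apart, with quartiles of 8839 and 54357 bp. The distance was at least 5000 bp in 250 genes, at least 10000 bp in 195 and at least 100000 bp in 31. The gap between the peaks had a median of 18264 bp and a lowest value of 264 bp, at Nr3c1, the glucocorticoid receptor. Peaks within 250 bp had been merged in the list, so shorter gaps could not occur. The genes just inside the rule were Zfp661 (a zinc finger gene) at 2425 bp, Mrpl36 (a protein of the mitochondrial ribosome) at 2513 bp and Rbm10 (a splicing regulator) at 2595 bp. Inhba, the activin A subunit, followed at 2624 bp and Rmi1, a partner of the BLM helicase, at 2818 bp. Just outside it, Xpnpep1 had different peaks at TSSs 1661 bp apart, Tyw1, whose TSSs all lay closer than the limit, at 1416 bp and Nadk at 1322 bp.

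The largest distance was 2857159 bp, at Fgfr2, a receptor for fibroblast growth factors. It was the only one of the 278 genes over 1 Mb, and its upstream peak, 5320 bp wide, also lay at a TSS of another gene. The upstream start encoded at most 182 codons and the downstream start 840. Next came Mecom, a zinc finger factor with a PR domain, at 496577 bp and Foxp1, a forkhead repressor, at 492739 bp. Mast4, a microtubule-associated kinase, had marked starts 428354 bp apart with a further peak between them. Arhgap24, a GTPase-activating protein for Rac, followed at 363616 bp and Maml3, a coactivator of Notch signalling, at 308540 bp. At these last genes the peaks were unequal. Widths were 3221 bp upstream and 503 bp downstream at Arhgap24 and 4034 and 497 bp at Maml3. The upstream peak of Arhgap24 and the downstream peak of Mecom also lay at a TSS of another gene.

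Among genes with exactly 2 promoters, the representative TSSs were 14371 bp apart at the median where both were marked by separate peaks. The median was 13403 bp where the upstream promoter alone was marked, 9601 bp where the downstream promoter alone was marked, and 2738 bp where 1 peak covered both. In genes without a peak it was 5497 bp. The quartiles of the genes with separate peaks (6685 and 39431 bp) overlapped those of genes marked upstream only (5755 and 31513 bp). The rule and the merging of peaks set the lower end of these distances, so they were not tested.

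**Figure D2:**
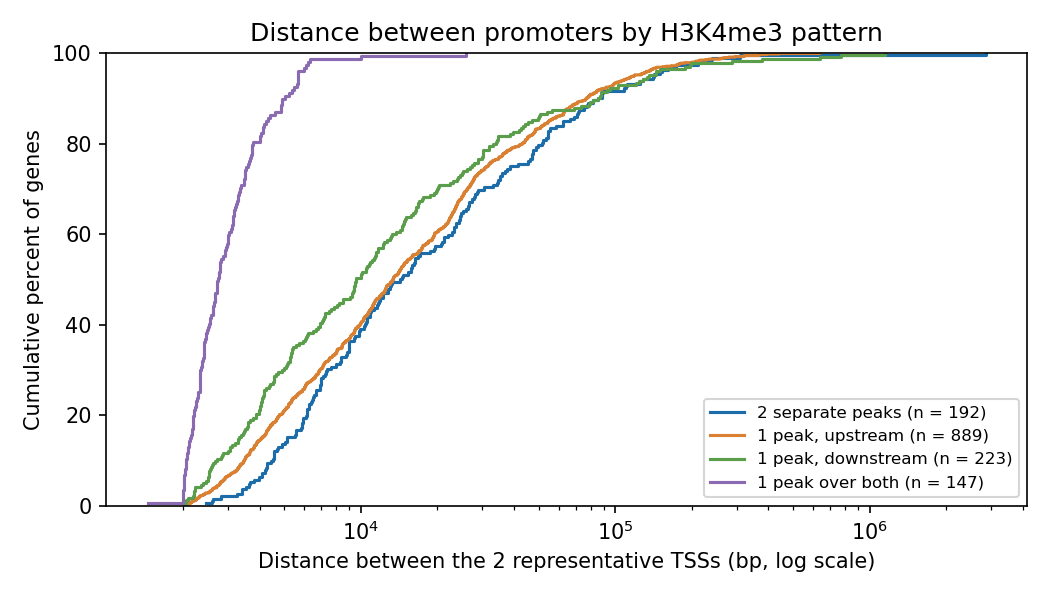
Lines show the cumulative percent of genes with exactly 2 promoters (y axis) against the distance between the representative TSSs in bp (x axis, log scale), for the 4 H3K4me3 patterns with a peak. Genes with 1 peak over both promoters, with a median of 2738 bp, lie to the left of the other 3 patterns drawn, whose medians run from 9601 to 14371 bp.

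The upstream peak of the 278 genes had a median width of 3283 bp (range 315 to 13506 bp) and the downstream peak 2795 bp (range 308 to 20666 bp). The upstream peak was the wider in 163 genes (58.6%) and the downstream peak in 115 (41.4%). It was at least 2 times as wide in 59 genes, and the downstream peak was at least 2 times as wide in 35. The median difference within a gene was 412 bp, with 296 ± 764 bp (mean ± SD of chromosome medians, n = 20), and it was positive on 13 of 20 chromosomes. This did not pass the test (two-sided permutation test by sign flips over chromosomes, p = 0.0988, adjusted p = 0.119). The difference turned on which genes were kept. It was 443 bp with an adjusted p of 0.048 where TSSs had to be at least 5000 bp apart, and 3 bp with an adjusted p of 0.406 without peaks at a TSS of another gene, by the same permutation test.

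Peaks at starts of other genes were more frequent on the upstream side, where 114 of the 278 upstream peaks (41.0%) and 41 downstream peaks (14.7%) came within 250 bp of a TSS of another protein-coding or lncRNA gene. Upstream peaks had a median width of 3520 bp where they were shared in this way and of 3001 bp where they were not. For downstream peaks the medians were 3359 and 2758 bp. In 144 genes (51.8%) neither peak was at a start of another gene. In those, the medians were 3041 bp upstream and 3143 bp downstream. Among the genes with 1 peak, 436 of 1496 (29.1%) had their peak at a start of another gene. The share was 31.8% (283 of 889) in the genes described above with only the upstream promoter marked. It was 19.3% (43 of 223) in those with only the downstream promoter marked. The upstream side thus had the higher share in genes with 1 peak as well, by value and without a test.

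**Figure D3:**
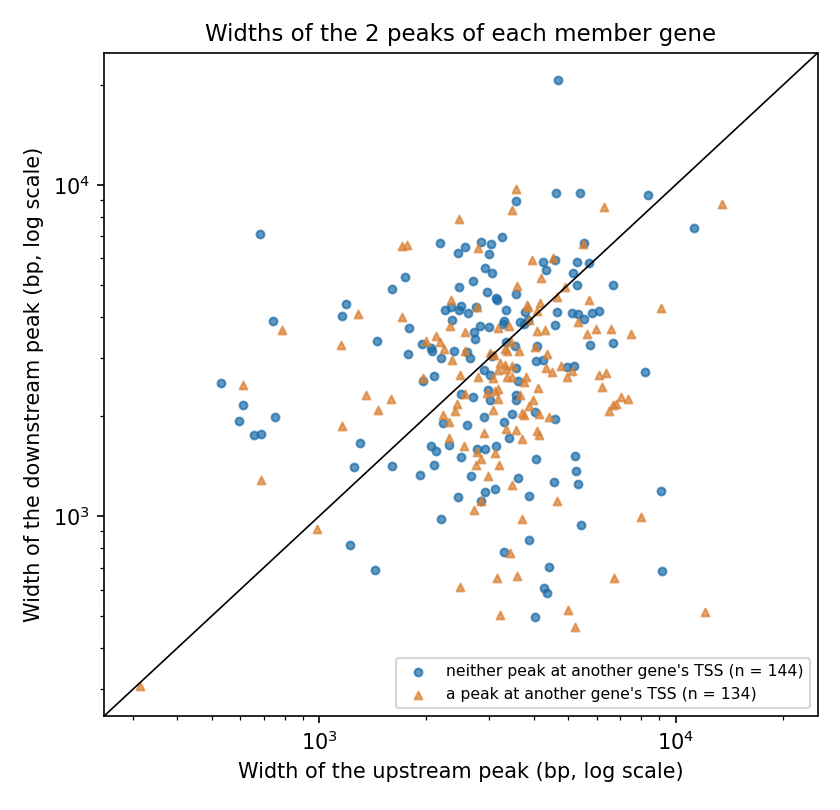
Each point is 1 of the 278 genes, with the width of its upstream peak on the x axis and of its downstream peak on the y axis, both in bp on log scales, and the line marks equal widths. Triangles are the 134 genes with a peak at a TSS of another gene and circles the 144 without, and 163 of the points lie below the line.

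The widths of the peaks of a gene hardly varied together, with a Spearman correlation of 0.10 across the 278 genes, which are not independent and share 1 list. The 5 genes with the largest summed widths were Plec (25333 bp), Bcl9l (22230 bp), Rara (18706 bp), Bcar1 (17683 bp) and Sept9 (14888 bp). They encode a cytoskeletal linker, a coactivator of β-catenin, a retinoic acid receptor, a focal adhesion scaffold and a septin. Bcl9l had the widest upstream peak of all, at 13506 bp, and Plec the widest downstream peak, at 20666 bp. The upstream peak of Bcl9l also lay at starts of 2 other genes, and the downstream peak of Sept9 at a start of another gene. The smallest sum was 623 bp, at Abhd18, an abhydrolase gene with peaks of 315 and 308 bp. Both of these peaks also lay at a start of another gene. For comparison, the single peaks of the 1496 genes had a median width of 3246 bp, with 3142 bp for upstream promoters, 2941 bp for downstream promoters and 5699 bp where the peak covered both.

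CpG content followed the mark in genes with 1 marked promoter. In the 1112 genes with 2 promoters and 1 marked, the marked promoter had a median of 41 CpGs within 250 bp of its TSS and the unmarked promoter 7. The median difference within a gene was 33 CpGs (33.2 ± 4.98, mean ± SD of chromosome medians), with the same sign on all 20 (permutation test by sign flips, two-sided, adjusted p = 8e-05). This held on either side by value. Genes marked upstream had medians of 43 CpGs upstream and 6 downstream, and genes marked downstream had 8 and 36. Genes with 2 promoters and no peak had 4 at each. In the 147 genes with 1 peak over both promoters the medians were 37 upstream and 11 downstream, so a marked promoter was not always CpG-rich.

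In the genes with separate peaks, both promoters were CpG-rich by comparison, and the upstream one more so. The medians were 38 CpGs upstream and 26 downstream, with a median difference within a gene of 8 CpGs. The difference was 10.9 ± 9.04 (mean ± SD of chromosome medians), positive on 16 of 20 (permutation test by sign flips, two-sided, adjusted p = 0.00021). It was 12.5 CpGs without peaks at a TSS of another gene, with an adjusted p of 0.018 by the same permutation test.

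**Figure D4:**
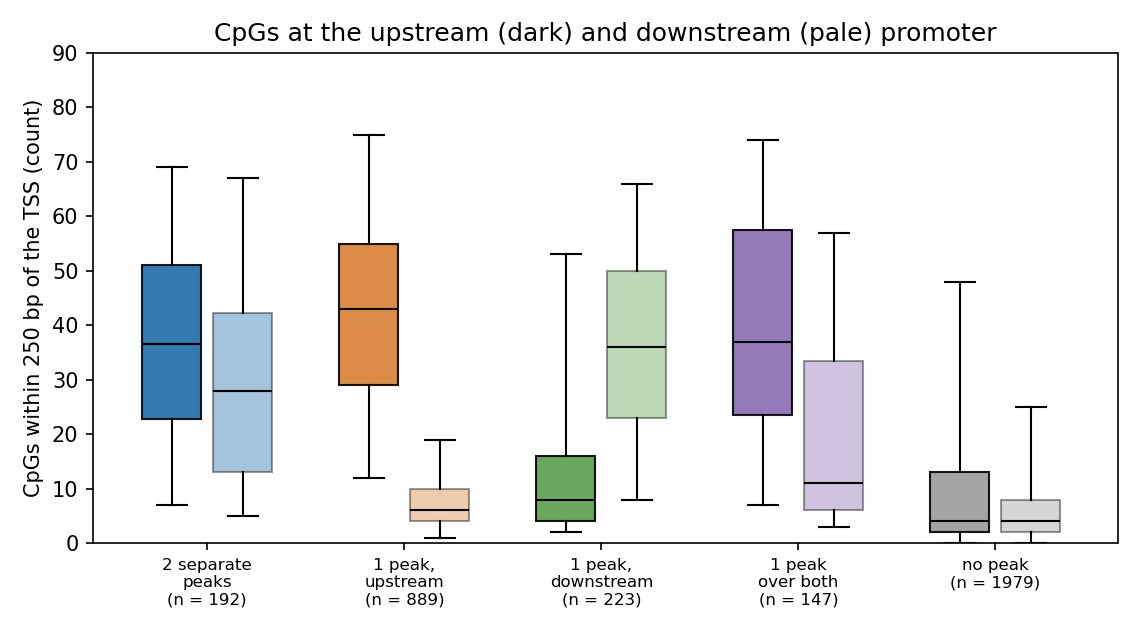
Boxes show the number of CpGs within 250 bp of the representative TSS (y axis) for the upstream promoter (dark) and the downstream promoter (pale) of genes with exactly 2 promoters, by H3K4me3 pattern. Boxes span the quartiles, lines the median, and whiskers the 5th to 95th percentile. Both medians are high only where both promoters were marked by separate peaks. Where 1 peak covered both, the downstream median was 11. The unmarked promoters of genes with 1 marked promoter have medians of 6 and 8.

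CpG islands were defined from sequence alone. A promoter was counted if any 200 bp window overlapping the 250 bp on either side of its representative TSS met both limits. These were a GC fraction of 0.5 or more and a CpG frequency of 0.6 or more relative to the value from base composition. A promoter with few CpGs around its TSS can thus count, as the downstream promoter of Mecom did with 5. Among genes with exactly 2 promoters, an island lay at both in 134 of 192 genes with separate peaks (69.8%) and in 19.6% of the 1112 genes with 1 marked promoter. The difference was 50.2 percentage points (49.5 ± 15.7 over chromosomes), with the same sign on all 20, and passed the permutation test (two-sided, sign flips, adjusted p = 8e-05). With stricter islands the shares were 47.9% and 6.12%. Islands at both promoters were therefore the more frequent arrangement in genes with separate peaks under either definition, but not under the stricter one in most of them. Conversely, 17.7% of the genes marked upstream only and 27.4% of those marked downstream only had an island at both promoters and a mark at a single one. Of the 147 genes with 1 peak over both promoters, 43.5% had an island at both by the first definition.

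Over all 278 genes, an island lay at both outer promoters in 181 (65.1%), at the upstream one only in 67 (24.1%), at the downstream one only in 23 (8.27%) and at neither in 7 (2.52%). The widths varied with this arrangement. Genes with islands at both had medians of 3302 bp upstream and 2855 bp downstream. The 67 genes with an upstream island only had 3294 and 2401 bp, and the upstream peak was the wider in 70.1% of them. In the 23 genes with a downstream island only the order was turned, with 2497 and 3680 bp, and the upstream peak was the wider in 30.4%. The 7 genes without an island at either were Ablim1, Cald1, Dlg4, Irgm2, Plec, Rtp4 and S100a3, named here after their values were seen. They include actin and intermediate filament linkers (Ablim1, Cald1, Plec) and interferon-inducible genes (Irgm2, Rtp4). Their promoters had between 3 and 18 CpGs, counted at the representative TSS. At Plec the representative upstream TSS was not the marked one and lay more than 250 bp from the upstream peak.

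Short promoter motifs were counted on both strands in the 100 bases before the representative TSS. GGGCGG, the core of the GC box, was present at 47.5% of the upstream and 36.3% of the downstream promoters of the 278 genes. It was found at 51.7% of marked and 7.46% of unmarked promoters of genes with 1 marked promoter, and at 31.8% of 41220 protein-coding TSSs. TATAAA, the TATA box, was present at 2.52% of upstream and 3.96% of downstream promoters, against 1.44% of marked and 6.56% of unmarked promoters and 5.16% of all TSSs. CCAAT was present at 18.7% and 21.2%, against 21.0% of marked promoters, 13.0% of unmarked promoters and 18.5% of all TSSs. In their share with the GC box, the downstream promoters of the genes with separate peaks thus lay between marked and unmarked promoters. Their share was nearest to that of all TSSs (31.8%), which lay within its Wilson interval of 30.9 to 42.1%. The core of the GC box holds a CpG and so is not separate from the CpG counts. Of the windows printed above, those of Mark2 and the downstream window of Bcl11a held GGGCGG, and the upstream window of Cald1, the downstream window of Runx1 and the upstream window of Bcl11a held CCAAT.

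The promoters of a gene often led to different coding starts. In 155 of the 278 genes (55.8%) no coding start was shared between transcripts of the outer marked promoters. In these, the longest open frame from the downstream promoter was the shorter in 101 (65.2%) and the longer in 53 (34.2%), with medians of 722 codons upstream and 552 downstream. A shorter downstream frame was thus no trait of these genes alone. Among genes with 2 promoters and different coding starts, its share was 82.4% where only the upstream promoter was marked. The share was 48.1% where only the downstream one was marked. Among genes with exactly 2 promoters, coding starts differed in 100 of 192 genes with separate peaks (52.1%) and in 44.5% of the 1112 genes with 1 marked promoter. The difference of 7.57 percentage points (6.83 ± 21.7 over chromosomes, positive on 12 of 20) did not pass the test (two-sided sign-flip permutation test, p = 0.176, adjusted p = 0.176). Examples with a shorter downstream protein were Smarca2, an ATPase of SWI/SNF remodelling complexes, with 1601 and 260 codons, and Kdm2b, a CXXC-domain histone demethylase, with 1309 and 776. Foxp1 had 705 and 577, and Dclk1, a doublecortin-like kinase, 756 and 452. At Pak1, a kinase acting below Rac and Cdc42, and at Nr3c1 a coding start was shared between the promoters.

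Cytoskeletal linkers had separate peaks in 5 of 16 eligible genes, namely Ablim1, Cald1, Dst, Lmo7 and Plec, beside 9 genes with 1 peak and 2 with none. At Plec the marked TSSs spanned 33787 bp, with peaks of 4667 bp upstream and 20666 bp downstream. Dst, the linker dystonin, had starts 103600 bp apart with 3558 and 9710 bp, and Cald1 had starts 111134 bp apart with 5520 and 6699 bp. In these 3 genes the downstream peak was the wider. Lmo7, an adherens junction protein, showed the reverse, with 4661 bp upstream and 1109 bp downstream over 110691 bp. The upstream peaks of Dst and Lmo7 also lay at a TSS of another gene. Ablim1, an actin-binding LIM protein, had narrow outer peaks of 1598 and 1422 bp over 120948 bp. Among the linkers with 1 peak, Sptan1, Sptbn1, Clasp1, Clasp2, Clip1, Map4 and Svil were marked at the first promoter, and the ankyrins Ank2 and Ank3 at the second of 5 and of 4 promoters. Macf1 and Tns1 had no peak.

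Transcription factors known for alternative promoters had separate peaks in 5 of 17 eligible genes, with 8 at 1 peak and 4 at none. At Runx1 the starts were 130024 bp apart, and the downstream peak (6181 bp) was wider than the upstream one (2993 bp). Runx2, the related factor of bone development, had the same order, with 2467 and 7880 bp over 79163 bp, and 2 and 33 CpGs. In both the island lay at the downstream promoter only. The downstream peak of Runx2 also lay at a TSS of another gene. Foxp1 had 5542 and 3924 bp, Tcf4 had 3857 and 3912 bp over 249280 bp, and Nr3c1 had 4062 and 2940 bp over 3442 bp. Tcf7l2, Tcf12, Mitf, Tead1 and Esr1 were marked at the first promoter only, Zeb2 at the last of 3, Bcl11a at the downstream one, and Lef1 had 1 peak of 2637 bp over both. Trp63, Trp73, Pparg and Erg had no peak.

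Chromatin regulators had separate peaks in 3 of 12 eligible genes. At Hdac7, a class IIa histone deacetylase, the upstream peak was 9153 bp wide and the downstream peak 684 bp, over 16904 bp. At Kdm2b the widths were 5115 and 2741 bp over 89468 bp, while the CpGs ran the other way, with 12 upstream and 75 downstream. Its upstream peak was also at a TSS of another gene. Smarca2 had 5327 and 4078 bp over 145268 bp. Dnmt1, the maintenance DNA methyltransferase, was marked at the downstream promoter only, with a peak of 3774 bp and 4 and 29 CpGs. Dnmt3a, Chd7, Hdac4, Ncor1 and Rere were marked at the first promoter only, Auts2 at the fourth of 5, and Hdac9 had no peak.

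Signalling genes had separate peaks in 4 of 14 eligible genes. Abl1, a tyrosine kinase, had starts 71392 bp apart with peaks of 4179 and 5241 bp, an island at both and different coding starts. The upstream peak of Abl1 also lay at a TSS of another gene. Mark2 had 4238 and 2952 bp over 46372 bp, with an island upstream only. Pak1 had 3569 and 2235 bp over 54394 bp. Fgfr2 has been described above. Fgfr1 and Prkca were marked upstream only, Nrg1 and Src at the second of 3 promoters, and Rassf1 and Shc1 had 1 wide peak over both, of 8551 and 7822 bp. Gnas, the stimulatory G protein subunit, had 1 peak of 7534 bp over the last pair of its 4 promoters. Cdkn2a and Grb10 had none. Over the 4 lists, 17 of 59 eligible genes had separate peaks, 33 had 1 and 9 had none. These lists favour genes known for alternative promoters, so their shares are not to be set against the 6.94% of all eligible genes as a finding.

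**Figure D5:**
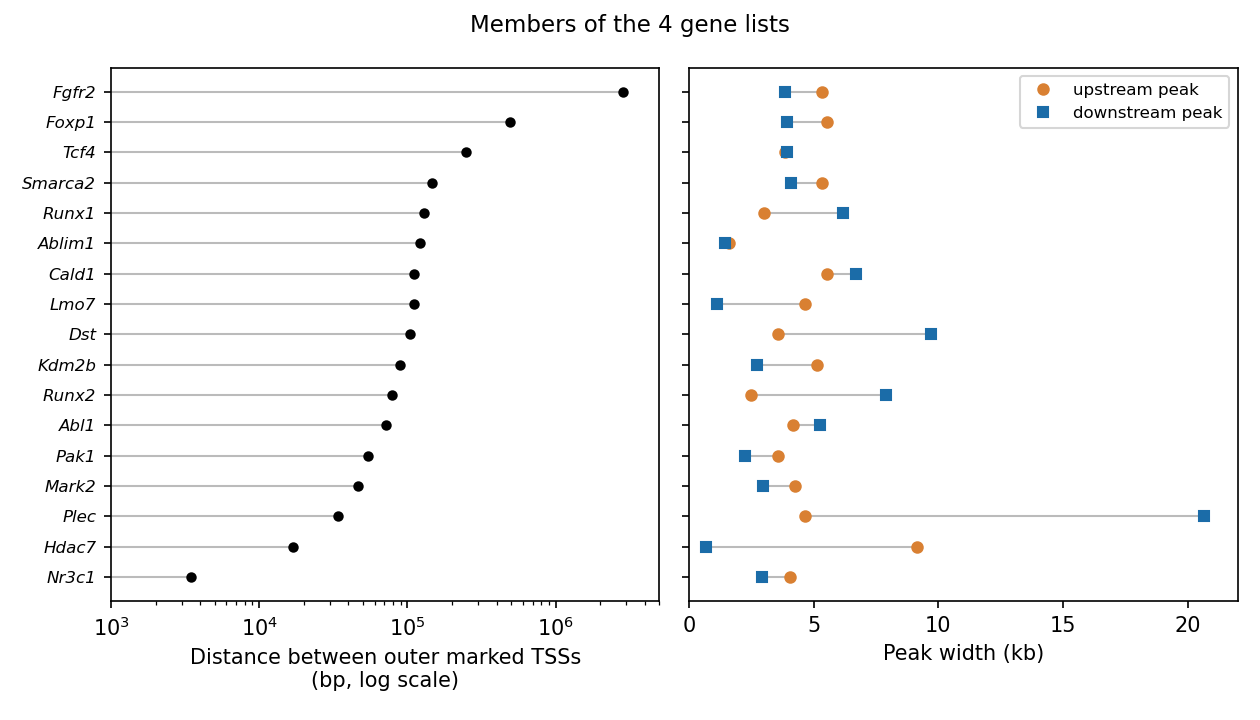
The left panel shows the distance between the outer marked TSSs in bp (log scale) and the right panel the widths of the upstream peak (circles) and the downstream peak (squares) in kb, for the 17 genes of the 4 lists that had separate peaks. Fgfr2 has the largest distance and Nr3c1 the smallest, and the downstream peak of Plec is the widest.

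Families defined by gene symbol were counted in the same way, without a test, beside the share of 6.94% over all eligible genes. Most families held few eligible genes, so a count of 0 or of a few does not set a family apart. Of 37 families, 22 had at least 1 gene with separate peaks. Zinc finger genes of the Zfp series had 6 of 102 eligible genes, and Slc transporters had 5 of 57. Nuclear receptors of the Nr series had 3 of 13, namely Nr2f2, Nr3c1 and Nr4a2. Arhgap and Arhgef genes had 3 of 24, Runx factors 2 of 4, Klf factors 2 of 5, protein 4.1 genes 2 of 4 and receptor tyrosine phosphatases (Ptpr) 2 of 9. No gene of 10 eligible myosins or 7 eligible ubiquitin-specific proteases had separate peaks, and 6 genes of each had 1 peak. Olfactory receptors had 0 of 739 and vomeronasal receptors 0 of 124, with 1 gene of each having a peak.

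To describe functions more widely, 112 of the 278 genes were assigned by hand to 11 roles. This was done after the genes and their values had been seen, which allows no comparison with other genes. Genes described above, such as Ablim1, Smarca2, Nr3c1, Mast4 and Fgfr2, were assigned too and count again in the roles. The wider peak was the upstream one in 58.6% and the downstream one in 41.4% of all 278 genes. The counts for each role below are a description beside these shares, without a test. Over the assigned genes together the downstream peak was the wider more often, unlike in all 278 genes. The counts of a role can therefore not be told apart from the choice of genes. The largest role was that of actin, adhesion and cytoskeletal linkers, with 20 genes. Their starts were 44530 bp apart at the median, and the downstream peak was the wider in 13. They included Flna (filamin A), with starts 3286 bp apart and peaks of 2993 and 3733 bp, and Pxn (paxillin), with 37409 bp, 4054 bp and 1493 bp. Bcar1 had wide peaks on both sides, of 8387 and 9296 bp. The 14 regulators of small GTPases had a median distance of 65352 bp, and the upstream peak was the wider in 10. Tiam1, an exchange factor for Rac, was among them, with 2225 and 1917 bp over 182942 bp. The 16 kinases and kinase subunits also had the wider peak upstream in 10. Pik3r1, the regulatory subunit of PI3-kinase, had 4584 and 1970 bp over 75587 bp, with 724 codons from the upstream and 454 from the downstream start.

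Transcription factors formed 4 of the hand-made roles. The 5 nuclear receptors had close starts, a median of 8965 bp apart, and median widths of 4062 bp upstream and 7423 bp downstream. The downstream peak was the wider in 3 of them and the upstream peak in 2. Rara had 11283 and 7423 bp, its relative Rarg 5380 and 9423 bp, and Nr2f2, an orphan receptor, 3578 and 8955 bp. The 3 ETS factors (Elf1, Elf2 and Elf4) had starts between 8963 and 63295 bp apart. Klf3, Klf13 and Sp2 had starts between 8951 and 14045 bp apart. Of the 15 other factors, 9 had the wider peak downstream. Gata2 was one, with 1745 and 5259 bp over 4443 bp, and Hif1a, the oxygen-regulated factor, was another, with 1190 and 4381 bp over 6529 bp and 9 and 53 CpGs.

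The 15 chromatin regulators had the wider peak downstream in 10. Ash2l, a core subunit of the complexes that write H3K4me3, had peaks of 1781 bp upstream and 3087 bp downstream, with 12 and 43 CpGs and starts 7612 bp apart. The 10 RNA-binding proteins had it downstream in 7. Adar, the adenosine deaminase acting on double-stranded RNA, had 1955 and 2562 bp over 15726 bp and different coding starts. The 5 phosphatase genes included Dusp1, a phosphatase of MAP kinases, with 4177 and 4405 bp over 53656 bp. Its upstream peak lay at a TSS of another gene. The 6 secreted factors and receptors included Wnt5a (3705 and 982 bp) and Inhba (3032 and 6652 bp). Bdnf, a neurotrophin with 4 of its 5 promoters marked, was another, with peaks of 3587 and 4950 bp. The upstream peak of Bdnf also lay at a TSS of another gene. The remaining 166 genes were not assigned to a role.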

How the data were processed

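H3K4me3 ChIP-seq reads were, per the methods of the study, aligned to mm10 with bowtie2, stripped of reads without a unique position and of PCR duplicates (SAMtools), and used for MACS peak calling in each replicate against its control. The authors kept peaks overlapping in all replicates, and joined those within 250 bp. The submitters' processing notes name Bowtie2, SAMtools and MACS2, with versions not given in the sources used here. The deposited list has 3 columns with chromosome, start and end in bp, and no score. A promoter that recurs in the genome can lack a peak because its reads were dropped. Depth is unknown.

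TSSs came from GENCODE vM21 basic transcripts, and sequence from RefSeq GRCm38.p6. The representative TSS of a promoter had the most transcripts. It was chosen without regard to peaks, so in a marked promoter it can lie more than 250 bp from the peak. The 6 differences were computed per chromosome and tested by two-sided sign-flip permutation over 20 chromosomes (100000 resamples), adjusted by Benjamini-Hochberg with a threshold of 0.05. P-values measure spread between chromosomes, not between replicates. Wilson intervals (95%) cover counting error over genes only. The scripts were tested on simulated data. Named genes were those of 4 lists and the 10 with most peaks, with ties ordered by the largest TSS distance. As only 2 genes had 3 peaks, this order chose the rest of the 10. The 5 with the largest and the 5 with the smallest distances were named, and the 5 with the largest summed widths. The rule also named the 3 on either side of the 2000 bp limit. Some list genes that this rule would name are not reported here. Sequences were printed for the first list genes in alphabetical order with 2 promoters, different coding starts and no other gene at the peaks. Genes of the hand-made roles and others named with them were chosen after their values were seen. The genes and lists were chosen with earlier results of these data known. Alternatives changed the TSS to peak distance (0 or 1000 bp), the TSS distance (1000 or 5000 bp), the transcripts, the peaks, the islands and the CpG window (500 bp). The work used scipy 1.17.1, pandas 2.3.3 and numpy 2.4.6 in Python 3.11.15, with plots by matplotlib 3.10.9.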

Additional observations from a re-analysis of the deposited data

Results flagged for a closer look

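The list held 4 peaks on scaffolds outside the 20 chromosomes, which entered no comparison above. They were noted because they are signal outside the data analysed. No gene with separate peaks was sought there.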

How the results depend on the processing

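The number of genes and the 6 tested differences were all recomputed under 8 alternatives. The stricter islands and the wider CpG window were applied only to the differences that use them. Of the 59 values this gave, 57 kept their direction and their side of the threshold, or for the number of genes stayed within 1.5 times. These include 7 values that were identical to those reported, because keeping only transcripts with a coding sequence left the same genes, and which are therefore no check. The width difference became 442.5 bp and passed the threshold (adjusted p = 0.048 by the permutation test over chromosomes) with TSSs at least 5000 bp apart. The number of genes fell from 278 to 144, all of them among the 278, without peaks at a TSS of another gene, where the width difference was 3 bp. The upstream excess of marking ran from 54.2 to 63.4 points, and the difference in islands at both promoters from 41.8 to 52.5 points. The causes were not tested. No paired analysis was possible because the deposited list is 1 consensus over the replicates, without values for each. For the same reason no replicate could be left out. With transcripts of support level 1 or 2 only, 187 of 1781 eligible genes had separate peaks (10.5%). Peak heights and depth are unknown, so an unmarked promoter is one without a consensus peak, not one without H3K4me3.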
